A study of Temora longicornis with 12 samples.

Results

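The 200 most abundant transcripts of Temora longicornis, a small planktonic copepod of coastal seas, were followed through a 5-day exposure to a lower or a raised temperature. They were the 200 of 44985 assembled transcripts with the highest median level over all 12 libraries, with levels given as CPM, which is counts per 1000000 of the counts left after the transcript TRINITY_DN157064_c6_g3_i1 was set aside. Because the levels themselves chose the members, their height is given as a description and without a test. All 200 passed the low-count filter and were tested. Recovery animals were brought to 17 °C over 24 h, kept there until day 4 and returned to 14 °C for the last 24 h. Sustained animals were warmed in the same way and stayed at 17 °C. Acute animals were warmed to 17 °C for the final 24 h alone after 4 days at 14 °C, and control animals stayed at 14 °C throughout. Total exposure was 120 h. RNA came from whole adult copepods kept in dark, aerated vessels, and 3 vessels of each group were sequenced, so every value mixes all tissues, and in such bulk samples fewer cells of a type and less RNA per cell cannot be told apart.

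The poly(A) RNA of an animal is dominated by the products of a small number of genes. In whole crustaceans the most abundant messages commonly include those of ribosomal proteins, muscle proteins, digestive enzymes and the mitochondrial genome. Such messages set how many reads are left for every other gene, so a shift in them can move the apparent level of the rest. The deposited table gives assembly identifiers alone, and no sequence, length or annotation was used here, so no member is given a function and the labelled species and stage could not be checked against marker genes. Long transcripts collect more reads than short ones at the same number of molecules, so the order of members below is an order of reads and not of molecules. In these identifiers the first number is a cluster of reads, c a component of that cluster, g a gene and i an isoform. Transcripts of one component were grouped by the assembler and may share sequence.

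Library totals ranged from 11582848 to 32504862 counts. The transcript set aside took from 0.00387% to 53.1% of them, with 39.9% ± 18.1 in recovery, 23.4% ± 18.7 in sustained, 14.4% ± 13 in acute and 17.1% ± 14.8 in control libraries (SD, n = 3 each). Across the members, control replicate 2 had the lowest rank correlation with the other libraries and the member farthest from its median. By the median absolute log2 deviation of members from their medians, recovery replicate 3 was highest, at 0.219. Recovery replicate 1 had 0.185, acute replicate 1 had 0.178 and control replicate 2 had 0.169. Results that rest on control replicate 2 are given with and without it.

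The 200 members held close to the same share of every library. Recovery libraries had 34.4%, 35.4% and 35.0% of their counts in members, and sustained libraries had 35.6%, 35.2% and 35.0%. Acute libraries had 36.4%, 34.6% and 34.9%, and control libraries had 37.1%, 35.3% and 36.1%. The ranges of the 4 groups overlapped, but control overlapped recovery and sustained only through control replicate 2. Without it, the control libraries lay above all recovery and all sustained libraries, though not above all acute libraries. The overlap of control with acute likewise rested on 1 library, acute replicate 1, at 36.4%. The other acute libraries lay below all 3 control libraries. With all libraries kept, the means were 34.9% ± 0.519 in recovery, 35.3% ± 0.285 in sustained, 35.3% ± 0.957 in acute and 36.2% ± 0.893 in control libraries (SD, n = 3 each). Counting error was far smaller than these spreads, with a 95% Wilson interval of 35.27% to 35.33% even in control replicate 2, the shallowest library. Such an interval covers counting error alone and treats each read as independent. When the transcript set aside was kept in the total, the members' share was 21.0% ± 6.39 in recovery, 27.0% ± 6.67 in sustained, 30.3% ± 5.41 in acute and 30.0% ± 5.35 in control libraries. On that scale single libraries ran from 16.1% in recovery replicate 1 to 36.4% in acute replicate 1, and every one of these values moves with the transcript set aside.

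**Figure D1:**
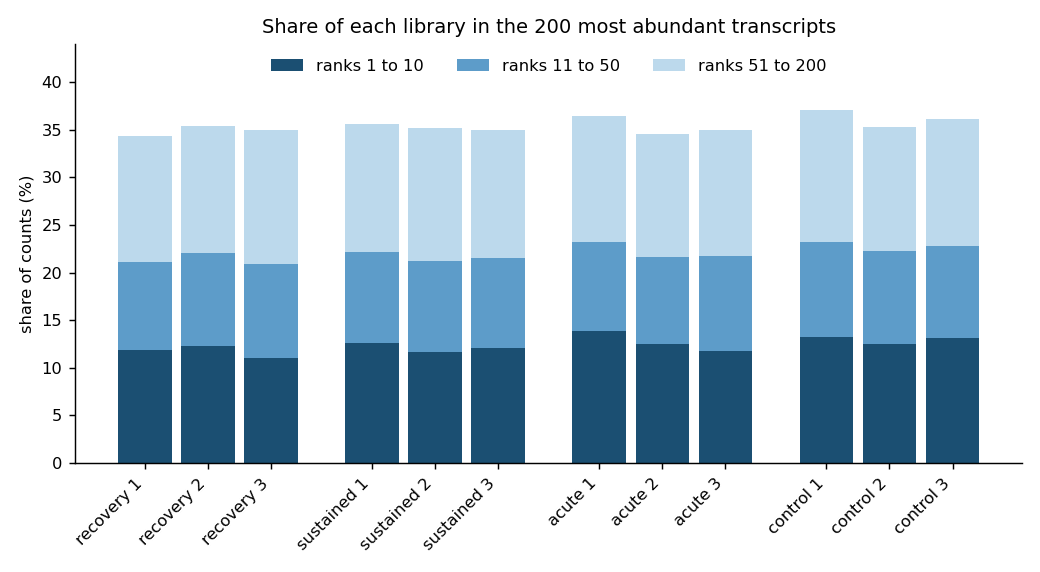
Share of counts (%, vertical axis) held by the 200 members in each of the 12 libraries, stacked by rank, with the transcript set aside removed from the total. Bars end between 34.4% in recovery replicate 1 and 37.1% in control replicate 1.

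The pool was steep at its top. The 10 most abundant members held 11.7% ± 0.638 of counts in recovery, 12.1% ± 0.497 in sustained, 12.7% ± 1.09 in acute and 13.0% ± 0.371 in control libraries. Recovery libraries lay at 11.1% to 12.3% and control libraries at 12.6% to 13.3%, so these 2 groups did not overlap, while the other pairs of groups did. Sustained libraries, at most 12.64%, overlapped control only through control replicate 2, at 12.55%. Without that library they also lay below all control libraries. Acute libraries overlapped control only through acute replicate 1, at 13.9%. Of the others, acute replicate 2, at 12.5538%, was barely below control replicate 2, at 12.5549%. Ranks 11 to 50 held 9.62% ± 0.279 of counts in recovery, 9.52% ± 0.0439 in sustained, 9.42% ± 0.477 in acute and 9.79% ± 0.123 in control libraries. Ranks 51 to 200 held 13.6% ± 0.448, 13.6% ± 0.319, 13.2% ± 0.132 and 13.4% ± 0.429 in the same order. For ranks 11 to 50 the sustained libraries lay below all control libraries. For ranks 51 to 200 the recovery and the sustained libraries lay above all acute libraries. The lowest recovery library, at 13.2286%, was barely above the highest acute library, at 13.2277%. Without control replicate 2, at 13.04%, the control libraries also lay above all acute libraries for ranks 51 to 200. Between 558 transcripts in control replicate 1 and 693 in acute replicate 2 were needed to reach 50% of the counts. The next 200 transcripts held 8.41% ± 0.438 in recovery, 8.50% ± 0.182 in sustained, 8.10% ± 0.0805 in acute and 8.21% ± 0.228 in control libraries. There the sustained libraries also lay above all acute libraries, and so did the control libraries without control replicate 2, at 7.96%.

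The edge of the list was not a natural gap. The last members, TRINITY_DN175384_c1_g3_i1 and TRINITY_DN146239_c0_g1_i1, had median levels of 563.1 and 562.6 CPM. The first transcripts outside it, TRINITY_DN169821_c0_g1_i1 and TRINITY_DN194187_c3_g1_i1, had 561.1 and 559.1 CPM. Over the members' median levels, the lower quartile was 700.5 CPM, the median 988 CPM and the upper quartile 1484 CPM. Leaving out any 1 library and choosing again kept 195 or more of the 200. Choosing on 1 group alone kept 193 with the recovery, 190 with the sustained, 185 with the acute and 193 with the control libraries, and 173 were chosen by each of the 4 groups alone. In single libraries, 175 to 190 of the 200 highest transcripts were members, the fewest in recovery replicate 1 and control replicate 2. Within the list, 129 members were among the top 200 of every library and 189 among the top 400 of every library, while 5 fell below rank 1000 in some library.

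The first 5 ranks were held by the same 5 transcripts in every library. TRINITY_DN190772_c7_g6_i3 ranked first in all 12 libraries, at 41332, 39859 and 30365 CPM in recovery, 40577, 37831 and 35512 CPM in sustained, 47928, 41774 and 36813 CPM in acute and 41858, 38056 and 48485 CPM in control libraries. The groups overlapped for this transcript, control with recovery and with sustained only through control replicate 2. Its lowest value was in recovery replicate 3 and its highest in control replicate 3. It alone held 3.72% ± 0.595, 3.80% ± 0.254, 4.22% ± 0.557 and 4.28% ± 0.528 of counts in recovery, sustained, acute and control libraries (SD, n = 3 each).

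Ranks 2 to 5 changed hands among the other 4. TRINITY_DN171713_c5_g3_i1 was second in 4 libraries, TRINITY_DN169471_c2_g2_i1 in 4, TRINITY_DN190198_c2_g1_i1 in 3 and TRINITY_DN163106_c4_g1_i1 in 1, which was control replicate 2. Their median levels over the 12 libraries were 15726, 13845, 13243 and 10963 CPM in that order. TRINITY_DN190198_c2_g1_i1 was at 12719, 11742 and 10647 CPM in recovery, 13523, 12962 and 12412 CPM in sustained, 19093, 13943 and 12857 CPM in acute and 14997, 13657 and 15825 CPM in control libraries. Its recovery libraries lay below all acute and all control libraries, and its sustained libraries also lay below all control libraries. TRINITY_DN163106_c4_g1_i1 stayed between 9448 and 11769 CPM in 11 libraries and was at 15211 CPM in control replicate 2. Neighbours among ranks 2 to 4 exchanged places between libraries, so their order was within the spread between libraries.

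Ranks 6 to 10 fell at 5031 to 7496 CPM by median. TRINITY_DN181743_c1_g5_i1, sixth, ranged from 4944 to 8293 CPM and TRINITY_DN193014_c16_g9_i1, seventh, from 3918 to 8082 CPM, and the 4 groups overlapped for both. TRINITY_DN172149_c2_g16_i1 and TRINITY_DN171103_c2_g3_i1 followed, with medians of 5963 and 5777 CPM. The tenth, TRINITY_DN169461_c3_g4_i1, was the least steady of the 10, at 2024, 3917 and 7246 CPM in recovery, 5129, 7632 and 7494 CPM in sustained, 5798, 3430.0 and 4908 CPM in acute and 4933, 6446 and 3698 CPM in control libraries. It ranked 33 in recovery replicate 1 and 6 in sustained replicate 2. Of the first 10 members, 7 were among the top 10 of every library.

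**Figure D2:**
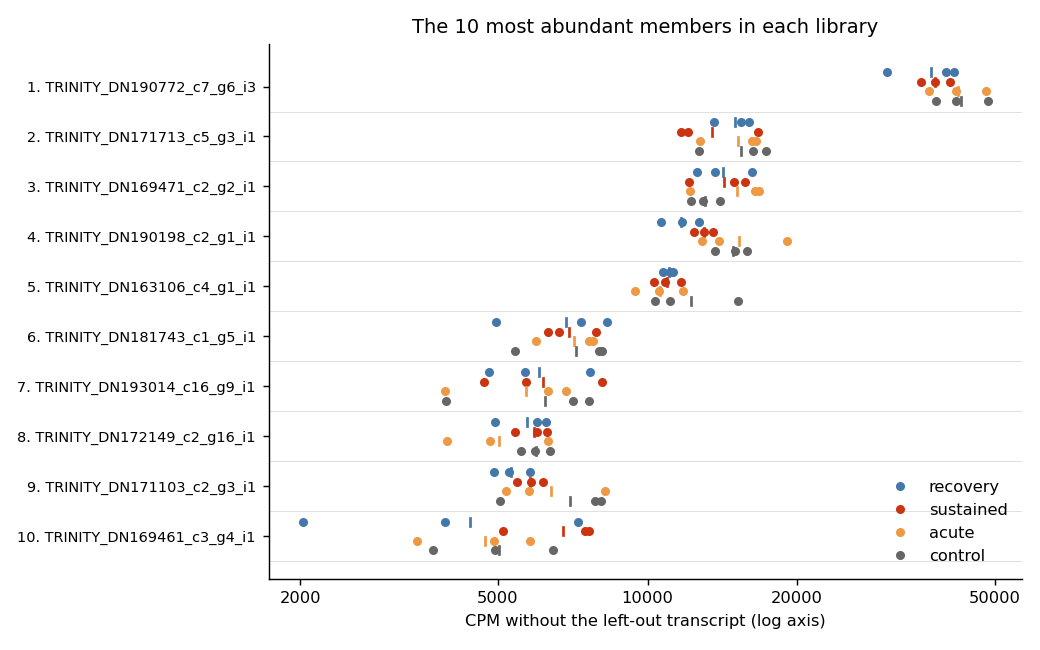
Levels of the 10 most abundant members (CPM without the transcript set aside, log axis), 1 point per library and a bar at each group's mean. The first member lies between 30365 and 48485 CPM in every library, above all others, and the tenth is the widest, from 2024 to 7632 CPM.

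Rank order over the whole list was similar in pairs of libraries from the same group and from different groups. Across the 200 members, Spearman's rho between 2 libraries had a median of 0.895 over 66 pairs. It was 0.906 for the 12 pairs of the same group, with a range from 0.727 to 0.953, and 0.894 for the 54 pairs of different groups, with a range from 0.718 to 0.968. These values are across transcripts, which are not independent replicates, and they share each library. The lowest median rho with the other libraries was 0.813 for control replicate 2, followed by 0.841 for recovery replicate 1 and 0.846 for recovery replicate 3. Recovery replicate 1 and recovery replicate 3 were the least alike pair within a group, and sustained replicate 1 and control replicate 3 the most alike of all. Without control replicate 2 the medians were 0.915 within groups and 0.916 between groups.

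Most members moved little. The highest of the 12 libraries was at most 2 times the lowest for 147 of the 200 members, and at most 1.5 times for 60. Without control replicate 2 the first count was 166. Of 40942 transcripts tested besides the one set aside, 19.5% stayed within 2-fold over the 12 libraries, against 73.5% of the members. Going down the order of abundance, that share was 60.5% for the next 200 transcripts, 69% for the 600 after them, 67.55% for the 4000 after those and 28.3% for a further 15000. The median SD of log2 CPM over the 12 libraries was 0.219 for the members, against 0.239, 0.225, 0.233 and 0.348 for those 4 sets and 0.395 for all transcripts tested. The first 50 members had a median SD of 0.208 and ranks 51 to 200 of 0.228. Without control replicate 2, 83% of the members stayed within 2-fold, against 75.5%, 80.5%, 79.5% and 43.2% of the same 4 sets. The median SD was then 0.206 for the members, against 0.217, 0.206, 0.216 and 0.302, so the members differed little from sets just below them. No member had a count of 0 in any library, and outside control replicate 2 the lowest count of a member was 3279, for which counting error alone is 1.75%. The variance between replicates was 391 times the counting variance for the median member, from 11.7 to 10954 times. The spread is stated here as measured, and no test was made of it, since the members were chosen on the same libraries.

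The steadiest members were spread over the list. TRINITY_DN190136_c1_g1_i1 had the smallest SD of log2 CPM, 0.0584, with 629, 609.7 and 667 CPM in recovery, 639, 626 and 617 CPM in sustained, 585, 606 and 619 CPM in acute and 676, 639 and 648 CPM in control libraries. TRINITY_DN180775_c1_g2_i1, at rank 23, followed with 0.0616, at 2447, 2687 and 2493 CPM in recovery, 2318, 2392 and 2501 CPM in sustained, 2649, 2567 and 2552 CPM in acute and 2515, 2622 and 2586 CPM in control libraries. All libraries of these 2 members lay within 1.16-fold of each other. TRINITY_DN163279_c0_g1_i1, TRINITY_DN192498_c0_g4_i1 and TRINITY_DN172925_c0_g1_i1 were next, with SDs of 0.0687, 0.0714 and 0.0831 and medians of 1313, 939 and 1316 CPM. Of these 5, TRINITY_DN192498_c0_g4_i1 was the one with another transcript of its component in the table.

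The least steady members owed their spread to 1 library. TRINITY_DN177803_c0_g10_i1 had the largest SD, 2.39, and was at 702, 1037 and 1110.3 CPM in recovery, 835, 957 and 1016 CPM in sustained, 907, 783 and 1038 CPM in acute and 1009.8, 2.54 and 749 CPM in control libraries. The value of 2.54 CPM, from 22 counts in control replicate 2, lay 367-fold below the median. TRINITY_DN169034_c5_g8_i1 was at 8.43 CPM in that library against 547 to 1000.1 CPM in the other 11. TRINITY_DN180916_c5_g7_i1 was at 112 CPM against 1843 to 3018 CPM, TRINITY_DN172385_c9_g2_i2 at 71.8 CPM against 408 to 801 CPM and TRINITY_DN172639_c0_g18_i1 at 224 CPM against 1152 to 1555 CPM. In all, 9 members were more than 2-fold below their median in control replicate 2 and 1 was more than 2-fold above, whereas recovery replicate 1 had 9 below and recovery replicate 3 and control replicate 3 had 1 each. The other 8 libraries had none. Without control replicate 2 the widest member was TRINITY_DN176731_c1_g5_i1, with a highest value 4.20 times its lowest, and no member then exceeded 10-fold.

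Relatives of the members that were low in control replicate 2 were looked up by component after these values were seen. In 3 of the 9 cases another transcript of the component was higher there and the sum was within the range of the other libraries. TRINITY_DN177803_c0_g10_i2, the other isoform of the same assembled gene and itself a member, was at 4548 CPM in control replicate 2 and at 3296 to 4033 CPM elsewhere. Both isoforms together gave 4551 CPM there and 4212 to 5070.5 CPM in the other 11 libraries. TRINITY_DN172639_c0_g6_i1, which is not a member, was at 1859.9 CPM there and at 409 to 563 CPM elsewhere, and its sum with TRINITY_DN172639_c0_g18_i1 was 2084 CPM there and 1578 to 2089 CPM elsewhere. TRINITY_DN165404_c5_g15_i3 was at 586 CPM there and at 153 to 317 CPM elsewhere. With its relative TRINITY_DN165404_c5_g7_i1, at 115 CPM there and 456 to 721 CPM elsewhere, the 3 transcripts of that component summed to 963 CPM there and 804 to 1229.9 CPM elsewhere.

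In the other 6 cases the sum over the component was low in control replicate 2. Both transcripts of TRINITY_DN169034_c5 were nearly absent there, with a sum of 11.8 CPM against 1069 to 1343 CPM in the other 11 libraries, although the split between them varied among those libraries. The sum of TRINITY_DN185301_c7 was 1379 CPM there and 3000.0 to 4509 CPM elsewhere. Its member TRINITY_DN185301_c7_g3_i1 was at 1114 CPM there against 2732 to 4294 CPM elsewhere. The other transcript, TRINITY_DN185301_c7_g19_i1, was not low, at 265 CPM there against 215 to 389 CPM elsewhere. TRINITY_DN180916_c5_g7_i1, TRINITY_DN172385_c9_g2_i2, TRINITY_DN188001_c3_g3_i1 and TRINITY_DN185554_c5_g8_i2 were the sole transcripts of their components. The member above its median, TRINITY_DN163106_c4_g2_i1, was at 3230.4 CPM in control replicate 2 and at 1038 to 1303 CPM elsewhere, and the component it shares with the fifth-ranked member summed to 18877 CPM there and 10776 to 13439.9 CPM elsewhere. How the counting treated reads that fit more than 1 transcript of a component is not given in the sources used, and its part in these values was not tested.

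**Figure D3:**
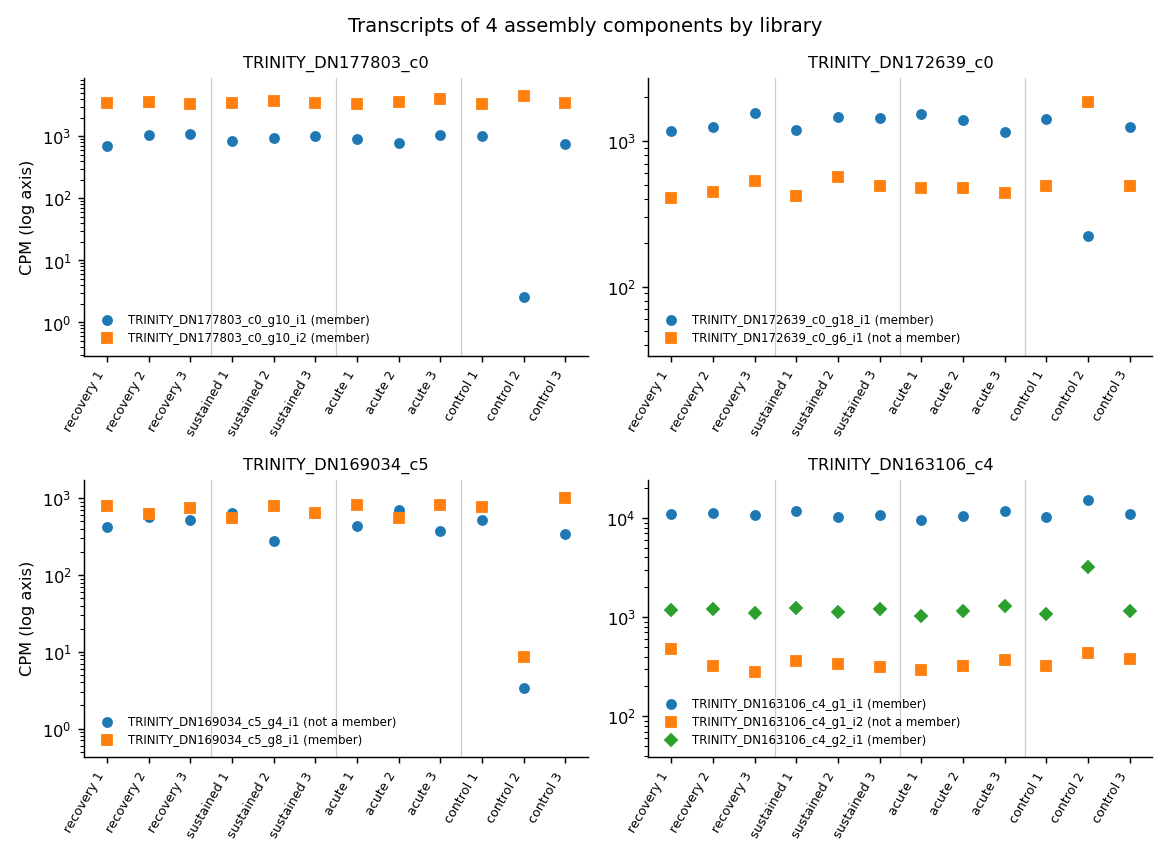
Levels (CPM, log axis) of the transcripts of 4 assembly components at 100 CPM or more in some library, by library. In control replicate 2 a member of TRINITY_DN177803_c0 and one of TRINITY_DN172639_c0 are low while a relative is high, both transcripts of TRINITY_DN169034_c5 are low, and 2 of TRINITY_DN163106_c4 are high.

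Recovery replicate 1 had a different set of low members. TRINITY_DN176731_c1_g5_i1, at rank 17, was at 1153, 3574 and 4233 CPM in recovery, 2867, 4841 and 3706 CPM in sustained, 3874, 2830.0 and 3113 CPM in acute and 4083, 3496 and 3189.8 CPM in control libraries. The first of these values stood below all others, and the recovery group spanned nearly the whole range of the series. TRINITY_DN184529_c4_g9_i1, at rank 19, was at 1156, 3156 and 4292 CPM in recovery and at 2346 to 4023 CPM in the other 3 groups. TRINITY_DN180215_c0_g3_i1 was at 425, 1104 and 1758 CPM in recovery and at 898 to 1728 CPM in the others. The remaining members more than 2-fold below their median there were TRINITY_DN176731_c1_g7_i1, TRINITY_DN185848_c1_g1_i3, TRINITY_DN184529_c4_g7_i1, TRINITY_DN184529_c4_g2_i1, TRINITY_DN169461_c3_g4_i1 and TRINITY_DN194210_c6_g2_i1. All 9 were also higher in recovery replicate 3 than in recovery replicate 2. The transcript set aside took 53.1%, 47.2% and 19.3% of counts in the 3 recovery libraries, and its part in this was not tested. In control replicate 3, TRINITY_DN192453_c31_g6_i2 was at 349.6 CPM against 524 to 1080.0 CPM elsewhere, and its relative TRINITY_DN192453_c31_g5_i1 was also at its lowest there, 661 CPM. In recovery replicate 3, TRINITY_DN176637_c1_g4_i3 was at 2058 CPM against 755 to 1707 CPM elsewhere. In the other libraries the member farthest from its own median stayed nearer, such as TRINITY_DN172022_c2_g1_i1 at 386 CPM in sustained replicate 1, against a median of 563 CPM, and TRINITY_DN194210_c6_g2_i1 at 835 CPM in control replicate 1, against a median of 579 CPM.

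**Figure D4:**
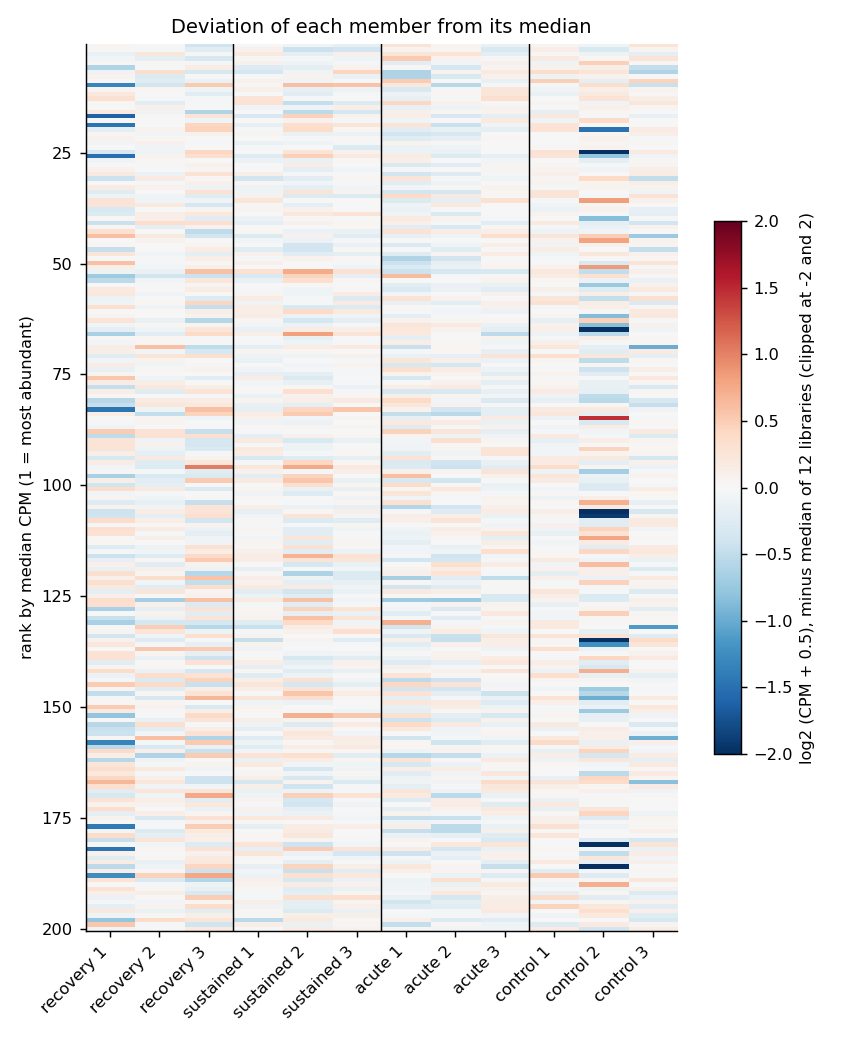
Deviation of each of the 200 members (rows, by rank) from its own median over the 12 libraries (columns), in log2 (CPM + 0.5), clipped at -2 and 2. Control replicate 2 and recovery replicate 1 each hold 9 members more than 2-fold below their median. Each other library holds at most 1 member more than 2-fold from its median. The median absolute deviation is largest in recovery replicate 3, at 0.219.

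The 200 members came from 198 assembled genes and 184 components, and 14 components held 2 or 3 members, 30 members in all. The log2 ratio of 2 members of the same component had a median SD of 0.138 over the 12 libraries for 18 such pairs, against 0.332 over all 19900 pairs of members. Without control replicate 2 the medians were 0.083 and 0.289. The pairs differed among themselves. The 2 isoforms of TRINITY_DN177803_c0 had an SD of 2.49, or 0.234 without control replicate 2, and the 2 members of TRINITY_DN174724_c3 had 0.428, or 0.164 without it, so both were above the median of all pairs over the 12 libraries. TRINITY_DN193151_c1 held TRINITY_DN193151_c1_g10_i1, TRINITY_DN193151_c1_g2_i1 and TRINITY_DN193151_c1_g8_i1, whose ratios to each other had SDs of 0.0685 to 0.148. TRINITY_DN184529_c4 held 3 members with SDs of 0.077 to 0.146. Members of a component may share sequence, which was not checked here, and are counted as 1 line of evidence. Of the members, 84% were the sole transcript of their assembled gene, against 61.8% of the transcripts tested, and 54.5% were alone in their component, against 24.9%.

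The share of each member's variation in log2 CPM that lay between the 4 groups had a median of 22.0%, against 24.9% over all transcripts tested. With no group effect, an average share of 27.3% (3 of 11) would be expected, and 78 members lay above that level. The members' median depended on single libraries, and leaving out 1 at a time gave 19.2% without sustained replicate 2 to 31.8% without recovery replicate 3. The level expected with no group effect also rises when a library is left out. The means of the 4 groups lay within 1.5-fold of each other for 187 members, with a median ratio of 1.19. The largest ratio of the highest to the lowest group mean was 1.78, for TRINITY_DN170007_c1_g2_i1. It averaged 884 ± 354 CPM in recovery, 929.9 ± 215 CPM in sustained, 523 ± 91.8 CPM in acute and 765 ± 107 CPM in control libraries (SD, n = 3 each).

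No member passed the test for any difference between groups. The quasi-likelihood test of edgeR, fitted on all 40943 transcripts with p-values adjusted by the Benjamini-Hochberg method and a threshold of 0.05, called 0 members in each of 10 comparisons and 0 transcripts over the whole table (0%). DESeq2 also called 0 members in each. At an unadjusted p under 0.05 for any difference among the 4 groups, edgeR listed 6 of the 200 members (3%), against 3.01% of all transcripts tested, and DESeq2 listed 4. The 5 with the smallest p were TRINITY_DN191373_c3_g8_i1, TRINITY_DN193151_c1_g10_i1, TRINITY_DN157274_c0_g2_i1, TRINITY_DN193151_c1_g8_i1 and TRINITY_DN193151_c1_g2_i1, with unadjusted p-values of 0.0028, 0.021, 0.027, 0.028 and 0.045 in edgeR's fit and an adjusted p of 1 each. The count of 6 was 3 or 11 when acute replicate 1 or 3 was left out and 12 without recovery replicate 3. Scaling by library totals alone, where the transcript set aside enters the total, moved the median log2 difference of all transcripts by -0.52 for recovery against acute, -0.45 for recovery against control, -0.34 for recovery against sustained, -0.18 for sustained against acute, -0.12 for sustained against control and 0.06 for acute against control. Values under that scaling are to be read against these shifts.

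The members' median log2 difference was 0.02 for recovery against sustained, 0.05 for recovery against acute, 0.04 for sustained against acute, 0.0018 for recovery against control, -0.03 for sustained against control and -0.06 for acute against control. Over all transcripts tested the medians were 0.01, -0.01, -0.01, 0.02, 0.01 and 0.01 in that order. In the 6 pairs of groups the median SE of a member's log2 difference was 0.175 in each, against 0.422 to 0.427 over all transcripts tested. The approximate 95% interval lay within 2-fold in both directions for 174 to 185 of the 200 members and within 1.5-fold for 117 to 141, whereas 35.3% to 38.8% and 9.53% to 11.6% of all transcripts had such intervals. Intervals were not compared with transcripts of nearer abundance. The median SD of log2 CPM within groups was 0.220 for the members, against 0.390 for all transcripts tested. It was 0.240, 0.224 and 0.236 for the next 200, 600 and 4000 transcripts.

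**Figure D5:**
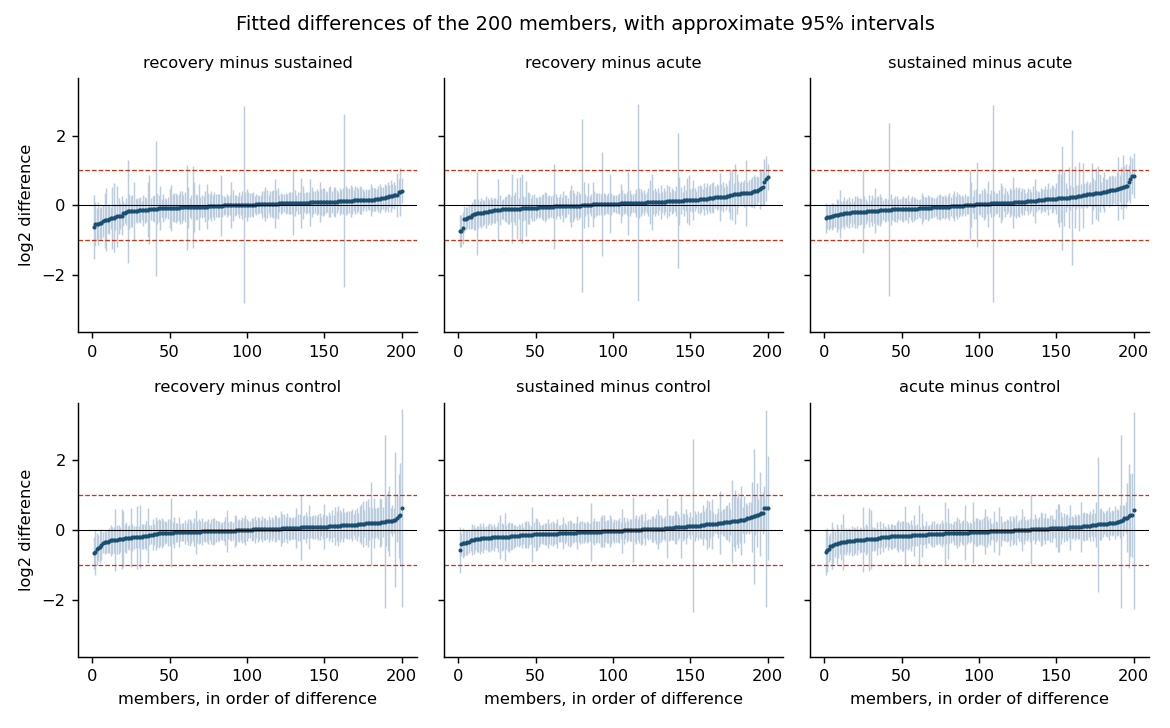
Fitted log2 differences of the 200 members (points, in order of size) with approximate 95% intervals (bars) in the 6 pairs of groups. Dashed lines mark 2-fold. Every point lies within 2-fold, and between 174 and 185 intervals do.

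Recovery against sustained libraries asked what a last day back at 14 °C changed. TRINITY_DN173190_c1_g1_i1 was at 463, 542 and 610.2 CPM in recovery libraries, against 571, 732 and 761 CPM in sustained libraries. The groups overlapped, and the log2 difference was -0.36 ± 0.14 (SE). TRINITY_DN191373_c3_g8_i1 was at 876, 1036 and 1206 CPM in recovery libraries, against 879, 758 and 673 CPM in sustained libraries, a log2 difference of 0.42 ± 0.17, again with overlap. The adjusted p of edgeR's test was 1 for both. Scaled by library totals alone, these differences were -0.66 and 0.11. All 3 recovery libraries were higher than all 3 sustained libraries for 8 members, against 3.83% of all transcripts, and lower for 7, against 3.85%. With no adjustment, edgeR listed 7 members (3.5%) at p under 0.05, against 2.14% of all transcripts, and DESeq2 listed 4. The count of 7 was 4 without recovery replicate 2, 22 without recovery replicate 3, 0 without sustained replicate 2 and 3 without sustained replicate 3. Over the members the log2 differences ran from -0.63 to 0.42 with a median of 0.02.

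Recovery against acute libraries set the 2 orders of temperature side by side, and it held the smallest p of any member. TRINITY_DN191373_c3_g8_i1 was at 876, 1036 and 1206 CPM in recovery libraries, against 515, 701 and 569.5 CPM in acute libraries. The groups did not overlap, and the log2 difference was 0.81 ± 0.17 (SE), with an unadjusted p of 0.00032 in edgeR's fit over all transcripts, the second smallest of 40943, and an adjusted p of 1. This member was named for its p. Over the other settings its adjusted p ran from 0.45 to 1, and its difference was 0.35 by library totals alone. The 3 members of TRINITY_DN193151_c1 were lower together. TRINITY_DN193151_c1_g8_i1 was at 492, 604 and 600.3 CPM in recovery libraries, against 1261, 759 and 806 CPM in acute libraries, with adjusted p = 1 in edgeR's test. Its log2 difference was -0.73 ± 0.22, or -0.46 without acute replicate 1 and -1.27 by library totals alone. TRINITY_DN193151_c1_g10_i1 was at 899, 1144 and 1098 CPM in recovery libraries, against 2276, 1452 and 1498 CPM in acute libraries, and TRINITY_DN193151_c1_g2_i1 was at 647, 815 and 829 CPM in recovery libraries, against 1526, 1022 and 1075 CPM in acute libraries. In each of the 3 the groups did not overlap, and acute replicate 1 was the highest library.

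Set against each other without a fit, all 3 recovery libraries were higher than all 3 acute libraries for 6 members, against 3.95% of all transcripts, and lower for 10, against 4.49%. At an unadjusted p under 0.05 edgeR listed 15 members (7.5%), 8 higher and 7 lower in recovery, against 3.91% of all transcripts, and DESeq2 listed 8. Among the 7 were the 3 members of TRINITY_DN193151_c1. The count of 15 was 5, 9 and 25 when acute replicate 1, 2 or 3 was left out, 24 without recovery replicate 2 and 9 without recovery replicate 3. It was 37 by library totals alone.

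Sustained against acute libraries set long warming against 24 h of it. TRINITY_DN157274_c0_g2_i1, at rank 52, was at 1814, 2465 and 1815 CPM in sustained libraries, against 1089.8, 1187 and 1198 CPM in acute libraries. The groups did not overlap, and the log2 difference was 0.83 ± 0.24 (SE, adjusted p = 0.94 in edgeR's test). TRINITY_DN164180_c0_g4_i1, at rank 35, was at 2059, 1606 and 1593 CPM in sustained libraries, against 2551, 2201 and 1963 CPM in acute libraries, a log2 difference of -0.34 ± 0.16 with overlapping groups (adjusted p = 0.94 in edgeR's test) that was -0.52 by library totals alone. All 3 sustained libraries were higher than all 3 acute libraries for 21 members (10.5%), against 6.7% of all transcripts, and lower for 9 (4.5%), against 7.32%. Unadjusted p-values under 0.05 were found by edgeR for 14 members (7%), all higher in sustained libraries, against 4.99% of all transcripts in either direction, and DESeq2 listed 8. The count of 14 was 7, 3 and 24 when acute replicate 1, 2 or 3 was left out, 23 without recovery replicate 3 and 2 without sustained replicate 2. It was 29 when only these 2 groups were fitted and 0 by library totals alone.

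Recovery against control libraries asked what was left of the warming a day after it ended. TRINITY_DN193151_c1_g10_i1 was at 899, 1144 and 1098 CPM in recovery libraries, against 1634, 1813 and 1499 CPM in control libraries. The groups did not overlap, and the log2 difference was -0.67 ± 0.22 (SE, adjusted p = 1 in edgeR's test), or -1.09 by library totals alone. Nor did the groups overlap for its relatives TRINITY_DN193151_c1_g8_i1, at 878, 779 and 793 CPM in control libraries, and TRINITY_DN193151_c1_g2_i1, at 1197, 931 and 1059.8 CPM there, with the recovery values given above. TRINITY_DN191373_c3_g8_i1 was at 876, 1036 and 1206 CPM in recovery libraries, against 870.2, 748 and 927 CPM in control libraries, a log2 difference of 0.27 ± 0.17 (adjusted p = 1 in edgeR's test). Its groups overlapped. The difference was 0.15 without control replicate 2 or without recovery replicate 3, and -0.14 by library totals alone. No member had all recovery libraries above all control libraries, against 4.06% of all transcripts, and 9 had all of them below, against 2.89%. In edgeR's fit 7 members (3.5%) had an unadjusted p under 0.05, all lower in recovery, against 3.18% of all transcripts in either direction, and DESeq2 listed 5. The count of 7 was 15 without recovery replicate 1, and 29 by library totals alone.

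Sustained against control libraries asked what differed after 5 days with warming. TRINITY_DN168576_c3_g8_i1, at rank 45, was at 1558, 1501 and 1586 CPM in sustained libraries, against 1721, 2824 and 1707 CPM in control libraries. The groups did not overlap, and the log2 difference was -0.42 ± 0.15 (SE, adjusted p = 0.98 in edgeR's test), or -0.20 without control replicate 2, which held the highest value. TRINITY_DN170107_c2_g1_i2 was at 1427, 2321 and 1603 CPM in sustained libraries, against 1228, 921 and 1323 CPM in control libraries, without overlap. Its log2 difference was 0.62 ± 0.29 (adjusted p = 0.98 in edgeR's test), or 0.36 without sustained replicate 2 and 0.44 without control replicate 2. All 3 sustained libraries were higher than all 3 control libraries for 9 members, against 6.49% of all transcripts, and lower for 8, against 4.03%. With TMM-scaled CPM, a setting added after the data were seen, the count of 9 was 5. Below an unadjusted p of 0.05 edgeR listed 3 members (1.5%), all lower in sustained libraries, against 4.44% of all transcripts, and DESeq2 listed 1. The count of 3 was 10, 1 and 1 when sustained replicate 1, 2 or 3 was left out, 9 and 5 when control replicate 1 or 3 was, 9 and 6 when recovery replicate 1 or 3 was, and 5, 1 and 6 when acute replicate 1, 2 or 3 was. It was 6 when only these 2 groups were fitted and 0 by library totals alone.

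Acute against control libraries asked what changed within 24 h of warming. TRINITY_DN191373_c3_g8_i1 was at 515, 701 and 569.5 CPM in acute libraries, against 870.2, 748 and 927 CPM in control libraries. The groups did not overlap, and the log2 difference was -0.54 ± 0.17 (SE, adjusted p = 0.99 in edgeR's test). TRINITY_DN187857_c1_g3_i1 was at 1084, 1051 and 1215 CPM in acute libraries, against 942, 632 and 992 CPM in control libraries, without overlap, a log2 difference of 0.35 ± 0.18 (adjusted p = 0.99 in edgeR's test) that was 0.14 without control replicate 2, the lowest library. All 3 acute libraries were higher than all 3 control libraries for 4 members, against 5.03% of all transcripts, and lower for 11, against 3.73%. With TMM-scaled CPM, a setting added after the data were seen, these counts were 2 and 6. Again 7 members (3.5%) had an unadjusted p under 0.05 in edgeR's fit, all lower in acute libraries, against 3.9% of all transcripts in either direction, and DESeq2 listed 3. The count of 7 was 2, 2 and 19 when acute replicate 1, 2 or 3 was left out, 12 without control replicate 2, 4 without sustained replicate 3 and 0 by library totals alone. The 3 comparisons with the control group share its libraries.

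The 2 temperatures were also taken as separate factors over 6 libraries each. For the first 4 days, TRINITY_DN157274_c0_g2_i1 averaged 1840 ± 446 CPM in libraries begun at 17 °C and 1301 ± 272 CPM in those begun at 14 °C (SD, n = 6 each). Its log2 difference was 0.50 ± 0.17 (SE, adjusted p = 0.91 in edgeR's fit over all transcripts). It was 0.39 without control replicate 2, 0.36 without recovery replicate 3 and 0.24 by library totals alone. This factor averages recovery against control with sustained against acute libraries, and the latter difference was 0.83 ± 0.24 for this member. Libraries begun at 17 °C lay between 1343 and 2465 CPM and those begun at 14 °C between 1051 and 1706 CPM, so they overlapped. TRINITY_DN164180_c0_g4_i1 averaged 1757 ± 181 CPM in libraries begun at 17 °C and 2216 ± 246 CPM in the others, a log2 difference of -0.34 ± 0.11 (adjusted p = 0.91 in edgeR's test) that was -0.67 by library totals alone. For the last day, TRINITY_DN191373_c3_g8_i1 averaged 682 ± 131 CPM in libraries that ended at 17 °C and 944 ± 159 CPM in those that ended at 14 °C, a log2 difference of -0.48 ± 0.12 with an unadjusted p of 0.0014 in edgeR's fit (adjusted p = 1), or -0.30 by library totals alone. The libraries that ended at 17 °C lay between 515 and 879 CPM and those that ended at 14 °C between 748 and 1206 CPM, so they overlapped. TRINITY_DN193151_c1_g8_i1 averaged 868 ± 228 CPM in libraries that ended at 17 °C and 691 ± 147 CPM in the others, a log2 difference of 0.35 ± 0.15 (adjusted p = 1 in edgeR's test) that was 0.20 without acute replicate 1, 0.23 without sustained replicate 2 and 0.58 by library totals alone.

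For the factors, unadjusted p-values under 0.05 from edgeR covered 11 members (5.5%) for the first 4 days, against 5.33% of all transcripts, and 5 (2.5%) for the last day, against 2.9%, while DESeq2 listed 9 and 1. The count of 11 was 5 or 19 when acute replicate 1 or 3 was left out, 25 or 19 when recovery replicate 1 or 2 was, and 35 by library totals alone. The count of 5 was 2 or 13 when acute replicate 1 or 3 was left out, 3 or 13 when recovery replicate 1 or 3 was, 2 without sustained replicate 2 and 3 by library totals alone. The interaction of the factors asks whether the last day acted alike after both beginnings. It also sets sustained and control libraries against those switched on the last day, recovery and acute. These 2 readings cannot be told apart in this design. For the interaction, edgeR listed 1 member at that unadjusted threshold, against 2.89% of all transcripts, and DESeq2 listed 0. That member was TRINITY_DN172212_c3_g2_i2, at 622, 701 and 1112 CPM in recovery, 929, 1357 and 1026 CPM in sustained, 817, 639 and 812 CPM in acute and 862, 816 and 923 CPM in control libraries, with an interaction of 0.67 ± 0.31 on the log2 scale (SE, adjusted p = 1 in edgeR's test). TRINITY_DN157274_c0_g2_i1, named above for the first 4 days, had an interaction of nearly the same size, 0.67 ± 0.34 (SE, unadjusted p = 0.069 in edgeR's test). In the other direction, TRINITY_DN191756_c2_g1_i1 had an interaction of -0.36 ± 0.20 (adjusted p = 1 in edgeR's test), or -0.07 by library totals alone. The count of 1 was 22 without recovery replicate 3, 6 without acute replicate 3 or control replicate 2, 5 without control replicate 1, 4 without control replicate 3, 3 without acute replicate 1, recovery replicate 1 or sustained replicate 1, and 0 when the second replicate of the acute, recovery or sustained group was left out. The interval of the interaction lay within 2-fold for 158 members (79%), against 17.5% of all transcripts. Here too no set of nearer abundance was compared.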

How the data were processed

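Per the labels' protocols, total RNA of whole copepods went into stranded mRNA libraries that were read from both ends on an Illumina instrument. Per the submitters' processing notes, the software was HTSeq 0.6.1, TopHat2 2.1.1, Trim Galore 0.4.1 and edgeR, with no role or order given. The authors deposited 1 table of unnormalized counts for the assembled transcripts. For the assembly and the counting options, details were not given in the sources used here. CPM is the count divided by the library total without TRINITY_DN157064_c6_g3_i1. Log2 CPM has 0.5 CPM added. Tests used edgeR 4.0.16 in R 4.3.3 (quasi-likelihood, robust, TMM factors from 0.634 to 1.34, filter at a minimum count of 10 and total of 15) on all 4 groups and 40943 transcripts, with that transcript kept in and 8 residual degrees of freedom. Each SE was taken from the fitted difference and its F statistic, so 95% intervals are approximate. Alternatives were DESeq2 1.42.0, RLE factors, library totals alone, no filter, that transcript left out, only the groups compared, and each library left out. Other list sizes, choice by mean, sums by Trinity gene, TMM-scaled CPM and a pseudocount of 0.1 CPM were also tried. Code was tested on simulated data. Python 3.11.15, pandas 2.3.3, NumPy 2.4.6, SciPy 1.17.1 and matplotlib 3.10.9 were used.

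Replicates are vessels and are numbered by accession, which pairs nothing. The p-values reflect variation among vessels. The members and lists were chosen with earlier results of these data known. Named members are the first 10 by median, the 2 on each side of the edge, the 5 with the smallest and the 5 with the largest SD, the member with the smallest p in each direction of each comparison, the 5 with the smallest p for any difference, the farthest member of each library and members of the fullest components. Relatives of members low in control replicate 2, other members more than 2-fold from their median and TRINITY_DN170007_c1_g2_i1 were named after their values were seen. Gene lists were not used, since the table gives identifiers alone.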

Additional observations from a re-analysis of the deposited data

How the results depend on the processing

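No member was called in any of 10 comparisons under any of the settings tried, DESeq2 included. Counts of members at an unadjusted p under 0.05 were less stable. Leaving out 1 library gave 0 to 22 for recovery against sustained, 5 to 25 for recovery against acute, 2 to 24 for sustained against acute, 6 to 15 for recovery against control, 1 to 10 for sustained against control and 2 to 19 for acute against control. It gave 5 to 25 for the first 4 days, 2 to 13 for the last day, 0 to 22 for the interaction and 3 to 12 for any difference. Library totals alone gave 37 for recovery against acute, 0 for sustained against acute, 29 for recovery against control, 0 for sustained against control, 0 for acute against control, 35 for the first 4 days, 3 for the last day, 0 for the interaction and 10 for any difference. DESeq2 gave 4 for recovery against sustained, 8 for recovery against acute, 8 for sustained against acute, 1 for sustained against control, 3 for acute against control, 1 for the last day and 0 for the interaction. Fits of only the groups compared gave 4, 8, 29 and 6 for recovery against sustained, recovery against acute, sustained against acute and sustained against control. The difference of TRINITY_DN191373_c3_g8_i1 between recovery and control turned to -0.14 with library totals alone, where the transcript set aside enters the total, and the other 402 of 403 recomputed values of named members kept their direction. Other causes were not tested.

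The share of counts in the members had a median of 35.2% over the libraries. It was 28.0% for the 100 and 43.7% for the 400 most abundant, and 27.9% with the transcript set aside kept in the total, since list size and total enter it by construction. Members within 2-fold were 75 of 100 and 268 of 400, and 147 to 166 without 1 library. The median rank correlation was 0.843 for the first 100. With TMM-scaled CPM, members with all libraries higher were 5 in place of 9 for sustained against control and 2 in place of 4 for acute against control, and those lower were 6 in place of 11 for acute against control, a setting added after the data were seen. No paired analysis was possible because the labels carry no replicate numbers shared between groups.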
